A study of Mus musculus with 32 samples.

Results

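Hindlimb muscle of aged C57BL/6 mice (80 weeks old) was compared between the late light phase, when these nocturnal animals normally rest, and the late dark phase, when they are normally active. The arrays were chosen by age and by the hour of collection: ZT 6 and 9 (zeitgeber time, counted in hours from lights on) formed the late light window and ZT 18 and 21 the late dark window. These were 8 of the 32 arrays of the series, 4 in each window. Each array was hybridised with pooled RNA of 3 mice, so the 8 arrays stand for 24 animals. All mice of the series lived under 12 h of light and 12 h of dark with free access to food and water. The labels name no transgene and no drug. Sampling ran every 3 h at 16 time points on successive days. Each age and ZT has 2 arrays, repeats 1 and 2, and the labels do not say whether these numbers mark the days. The counterpart at the other age was 8-week-old C57BL/6 muscle, with 8 arrays at the same hours. Behaviour was not measured, so "rest" and "activity" describe the usual habit of mice and not these animals.

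The repeats are pools of different mice, and every p-value below measures the spread between pools. Unless another fit is named, p-values and SE use the spread between repeats of the same age and ZT, over all 32 arrays. Change from ZT to ZT within a window is not counted as spread. All levels are log2 values on GeneChip Mouse Gene 2.0 ST arrays, and all differences are late dark minus late light. A difference of 1 is therefore a doubling, and levels of different genes are not comparable because each probe set has its own brightness. The tissue label was checked against 8 defining muscle fibre genes (Acta1, Ckm, Mb, Ttn, Des, Actn2, Neb and Tnnt3), whose mean differed little between the 8 arrays (12.55 to 12.76). A list of 18 hepatocyte genes set 6 of the 32 arrays apart, with a mean more than 1 log2 unit above the median array. Of the 8 aged arrays only ZT 6 repeat 1 was among them, at 8.04 against 5.54 to 5.90 in the other 3 late light arrays, while the late dark arrays were at 6.05 to 6.45. A list of 7 skin genes was high in the same array, at 6.59 against 5.33 to 5.43. Counts of genes past the threshold are also given without the 6 arrays.

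The mammalian clock is a loop of transcription factors. BMAL1 (encoded by Arntl) and CLOCK bind E-boxes and switch on the period, cryptochrome, REV-ERB, DEC and PAR bZIP genes, whose products then act back on the loop. Period and cryptochrome proteins and the DEC factors repress BMAL1 and CLOCK, the REV-ERB receptors repress Arntl and Nfil3 at elements shared with the ROR activators, and DBP and NFIL3 compete at D-boxes. In muscle this loop is known to pace genes of fuel use and of the myogenic programme.

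In aged muscle 34 of 23279 genes passed an adjusted p of 0.05 between the windows (limma, moderated test, Benjamini-Hochberg over all genes). Of these, 22 were higher in late dark (0.0945% of the genes tested) and 12 were lower (0.0515%). Their absolute log2 differences ran from 0.44 to 2.03 with a median of 0.77, while the median difference over all genes was -0.00397. Only 7 reached a 2-fold change: Arntl, Nfil3 and the antibody segment Igkv14-126 rose, and Nr1d1, Dbp, Ciart and Pfkfb3 fell. The 4 late dark arrays lay entirely above or below the 4 late light arrays in 33 of the 34, 21 upward and 12 downward, the exception being Igkv14-126. Over all genes 496 (2.13%) had all late dark arrays above and 473 (2.03%) had all of them below. At an unadjusted p below 0.05 there were 1322 genes, against 1164 that 5% of the tests would give.

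How many genes passed depended on the fit. All 34 kept their direction in all 19 alternatives tried on a gene (18 for Igkv14-126). That 0 of the 34 passed in every alternative was fixed beforehand, since the fits to only repeat 1 or only repeat 2 passed 0 genes. Banp, Bhlhe41, Ciart, Coq10b, Dbp, Ky and Nfil3 passed in 17 of the 19. The 34 were picked on these same arrays, so a kept direction was likely beforehand and is not separate support. Leaving out late dark ZT 18 repeat 1 left 19 genes and leaving out ZT 21 repeat 2 left 20. Without the 6 arrays with hepatocyte transcripts 24 genes passed, 14 higher and 10 lower, and 21 of them were among the 34. The genes that passed whichever of the 8 arrays was left out were Arntl, Nfil3, Banp, Ppp1r3c, Wsb1, Arrdc3, Arid5b and Cntfr upward, and Nr1d1, Dbp, Ciart, Per3, Bhlhe40, Bhlhe41, Coq10b and Ky downward. Such fits keep most of the arrays on which the genes were picked, so passing again is not separate support. With only the 8 arrays of the windows, where change from ZT to ZT within a window counted as spread, 8 of the 34 passed.

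The promoters of 9 clock and clock-linked genes past the threshold are shown first, because the genes sit on opposite sides of the comparison and 7 of them hold motifs that clock proteins are known to read. The other 2, Nr1d1 and Dbp, had large falls and no match in their windows. Each window covers 250 bases before to 50 bases after a RefSeq start site (mouse build GRCm38.p6), 5′ to 3′ on the gene's strand. Capitals mark matches, on either strand, to the E-box CACGTG, the D-box TTATGNAA or the element shared by ROR and REV-ERB, ANTNGGTCA. Arntl (chr7:113207261-113207560, plus strand) and Nfil3 (chr13:52980990-52981289, minus strand), both higher in late dark, carried the ROR and REV-ERB element, 29 bases after the start in Arntl and 12 bases before it, in reverse, in Nfil3. Another listed start of Arntl, with an overlapping window at chr7:113207215-113207514, had no match. Cry1 (chr10:85185005-85185304, minus strand), also higher in late dark, had an E-box 60 bases before its start. Among the genes lower in late dark, Ciart (chr3:95882179-95882478, minus strand) had 3 E-boxes, at 116, 58 and 44 bases before the start, and Bhlhe41 (chr6:145865371-145865670, minus strand) had an E-box 153 bases before it. Per3 (chr4:151044616-151044915, minus strand) had 2 D-boxes, 205 and 158 bases before the start. Coq10b (chr1:55052520-55052819, plus strand) had an E-box 78 bases and a reversed D-box 162 bases before its start. Nr1d1 (chr11:98775328-98775627, minus strand) and Dbp (chr7:45704997-45705296, plus strand) are printed without capitals, and no match says only that these letters are not in these windows.
Arntl: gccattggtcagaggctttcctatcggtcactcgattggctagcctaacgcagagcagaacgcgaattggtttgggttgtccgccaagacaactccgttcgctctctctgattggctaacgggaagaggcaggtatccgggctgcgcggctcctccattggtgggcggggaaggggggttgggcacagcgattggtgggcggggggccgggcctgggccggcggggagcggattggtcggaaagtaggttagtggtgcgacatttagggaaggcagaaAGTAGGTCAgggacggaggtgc
Nfil3: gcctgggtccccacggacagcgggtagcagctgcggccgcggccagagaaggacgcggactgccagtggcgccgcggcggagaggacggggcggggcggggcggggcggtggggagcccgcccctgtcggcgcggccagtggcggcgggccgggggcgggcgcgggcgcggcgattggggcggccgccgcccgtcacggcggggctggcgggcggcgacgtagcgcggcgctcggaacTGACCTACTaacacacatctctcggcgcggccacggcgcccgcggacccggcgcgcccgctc
Cry1: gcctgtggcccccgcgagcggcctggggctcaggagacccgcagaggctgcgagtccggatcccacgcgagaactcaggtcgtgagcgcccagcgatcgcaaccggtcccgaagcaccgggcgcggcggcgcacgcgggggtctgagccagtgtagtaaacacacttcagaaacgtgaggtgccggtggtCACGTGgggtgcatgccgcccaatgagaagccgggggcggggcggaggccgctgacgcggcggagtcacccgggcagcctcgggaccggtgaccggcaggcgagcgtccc
Ciart: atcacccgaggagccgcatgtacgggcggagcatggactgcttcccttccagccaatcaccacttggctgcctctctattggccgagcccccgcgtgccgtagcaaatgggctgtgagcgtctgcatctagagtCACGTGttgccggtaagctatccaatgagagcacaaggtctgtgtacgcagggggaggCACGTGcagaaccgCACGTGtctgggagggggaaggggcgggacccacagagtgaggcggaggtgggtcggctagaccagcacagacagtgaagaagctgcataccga
Bhlhe41: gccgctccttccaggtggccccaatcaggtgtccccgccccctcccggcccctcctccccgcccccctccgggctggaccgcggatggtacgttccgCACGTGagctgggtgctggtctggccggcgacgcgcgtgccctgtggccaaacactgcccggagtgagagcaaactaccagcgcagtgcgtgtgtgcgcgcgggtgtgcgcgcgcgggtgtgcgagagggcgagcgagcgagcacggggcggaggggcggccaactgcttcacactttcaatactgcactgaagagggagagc
Per3: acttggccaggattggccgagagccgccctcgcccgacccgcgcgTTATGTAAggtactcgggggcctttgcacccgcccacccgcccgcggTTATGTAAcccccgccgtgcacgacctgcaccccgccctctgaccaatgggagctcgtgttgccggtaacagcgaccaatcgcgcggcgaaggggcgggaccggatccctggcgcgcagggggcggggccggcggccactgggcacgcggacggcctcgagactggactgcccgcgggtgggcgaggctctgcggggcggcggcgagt
Coq10b: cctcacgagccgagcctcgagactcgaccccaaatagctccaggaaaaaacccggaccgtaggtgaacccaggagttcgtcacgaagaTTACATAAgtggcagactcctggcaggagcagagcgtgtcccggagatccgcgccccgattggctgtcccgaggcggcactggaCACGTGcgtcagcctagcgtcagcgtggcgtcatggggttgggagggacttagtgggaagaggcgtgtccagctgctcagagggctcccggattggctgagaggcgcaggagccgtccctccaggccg
Nr1d1: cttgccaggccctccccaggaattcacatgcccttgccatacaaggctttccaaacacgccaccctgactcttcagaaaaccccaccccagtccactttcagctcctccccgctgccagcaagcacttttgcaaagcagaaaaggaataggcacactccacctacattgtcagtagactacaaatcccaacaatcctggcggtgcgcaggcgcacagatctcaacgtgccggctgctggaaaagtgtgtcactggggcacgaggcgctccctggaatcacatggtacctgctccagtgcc
Dbp: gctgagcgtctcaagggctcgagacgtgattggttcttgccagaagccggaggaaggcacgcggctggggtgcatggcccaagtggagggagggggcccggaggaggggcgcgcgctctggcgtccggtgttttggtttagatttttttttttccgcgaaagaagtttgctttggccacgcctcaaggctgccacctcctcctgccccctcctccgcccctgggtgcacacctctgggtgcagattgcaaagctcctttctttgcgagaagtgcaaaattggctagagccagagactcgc

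Windows were matched for 17 of the 22 genes that were higher (27 windows) and 10 of the 12 that were lower (12 windows). Of these 27 genes 12 had a match in at least 1 window, to a motif above or to the glucocorticoid core given next, and 15 had none, and 25 of the 39 windows held no match. E-boxes lay in 4 windows of the higher genes (14.8%) and 4 of the lower genes (33.3%), against 7.15% of all 32851 promoter windows of the same length. D-boxes lay in 2 windows of the lower genes (16.7%) and in 0 of the higher genes, against 3.38% of all windows. The ROR and REV-ERB element was present in 2 windows of the higher genes (7.41%) and 1 of the lower genes (8.33%), that of Pfkfb3, against 2.24%. The core of the glucocorticoid element, ACANNNTGT, was found in 2 windows of the higher genes (7.41%), those of Glul and Wsb1, and in 0 of the lower genes, against 6.85%. No match overlapped another, and a match describes letters in these windows and not a bound site. The sets are small, and no test was run on these shares.

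The 19 core clock genes analysed here had a median difference of -0.32. In late dark 3 of them rose and 6 fell past the threshold. Array values below are given in the order repeat 1 and repeat 2 of each ZT.

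Among the activators, Arntl rose and its partners did not pass. Arntl stood at 8.81 and 8.62 at ZT 6, 7.85 and 7.96 at ZT 9, 9.41 and 9.19 at ZT 18, and 9.72 and 9.87 at ZT 21. All late dark arrays exceeded all late light arrays, and the level was lower at ZT 9 than at ZT 6 in both repeats. The difference of 4 arrays against 4 was 1.24 ± 0.10 (SE of the fit to all 32 arrays), a 2.36-fold rise. It had the smallest adjusted p of the comparison, 1.23e-06 (limma), and a 95% interval of 1.03 to 1.45 (log2). Neither the SE nor the interval counts the fall from ZT 6 to ZT 9 as spread. Clock, the dimer partner of BMAL1, was at 9.94 to 10.13 in late light and 10.20 to 10.47 in late dark, which did not overlap, but its difference of 0.31 ± 0.08 had an adjusted p of 0.241. Npas2, a paralogue that can stand in for CLOCK, differed by 0.55 ± 0.24 with overlapping arrays (adjusted p = 0.844), and ZT 21 repeat 1 was its highest array at 6.92.

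Of the period, cryptochrome and related repressors, Cry1 rose and Ciart and Per3 fell. Ciart, also called CHRONO, represses BMAL1 and CLOCK and is the gene with 3 E-boxes above. It stood at 8.02 and 7.83 at ZT 6, 8.54 and 8.21 at ZT 9, 6.75 and 7.01 at ZT 18, and 6.52 and 6.78 at ZT 21. The windows were more than 0.8 log2 units apart at their nearest arrays, and the fall was 2.62-fold (-1.39 ± 0.16, adjusted p = 0.000172). Per3 stood at 7.53 and 7.60 at ZT 6, 7.77 and 8.30 at ZT 9, 7.07 and 7.04 at ZT 18, and 6.62 and 6.57 at ZT 21. It fell 1.97-fold without overlap (-0.97 ± 0.13, adjusted p = 0.000668). Cry1, the cryptochrome that acts late in the cycle, stood at 7.03 and 7.20 at ZT 6, 7.06 and 7.33 at ZT 9, 7.62 and 7.58 at ZT 18, and 7.67 and 7.89 at ZT 21. Its rise was smaller, 1.45-fold (0.53 ± 0.09, adjusted p = 0.00964), and it passed in only 4 of the 8 fits that left out an array. Without the hepatocyte-high arrays Cry1 differed by 0.49 with an adjusted p of 0.177.

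Per1, Per2 and Cry2 did not pass, and their arrays overlapped between the windows. Per1, the period gene that light and glucocorticoids can induce, stood at 8.56 and 8.44 at ZT 6, 10.02 and 9.50 at ZT 9, 9.07 and 8.33 at ZT 18, and 8.45 and 7.94 at ZT 21. Its ZT 9 arrays were above all the others, so that the late light window held both high and middling levels. The window difference was -0.68 ± 0.16 (adjusted p = 0.133). Without ZT 18 repeat 1 it was -0.87 with an adjusted p of 0.0356. Per2 was at 6.83 and 6.99 at ZT 6, 7.62 and 7.51 at ZT 9, 7.35 and 7.11 at ZT 18, and 6.56 and 6.63 at ZT 21. Each window thus held a high and a low ZT, and the difference between windows was -0.32 ± 0.11 (adjusted p = 0.488). Cry2 differed by -0.30 ± 0.11 (adjusted p = 0.659).

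**Figure D1:**
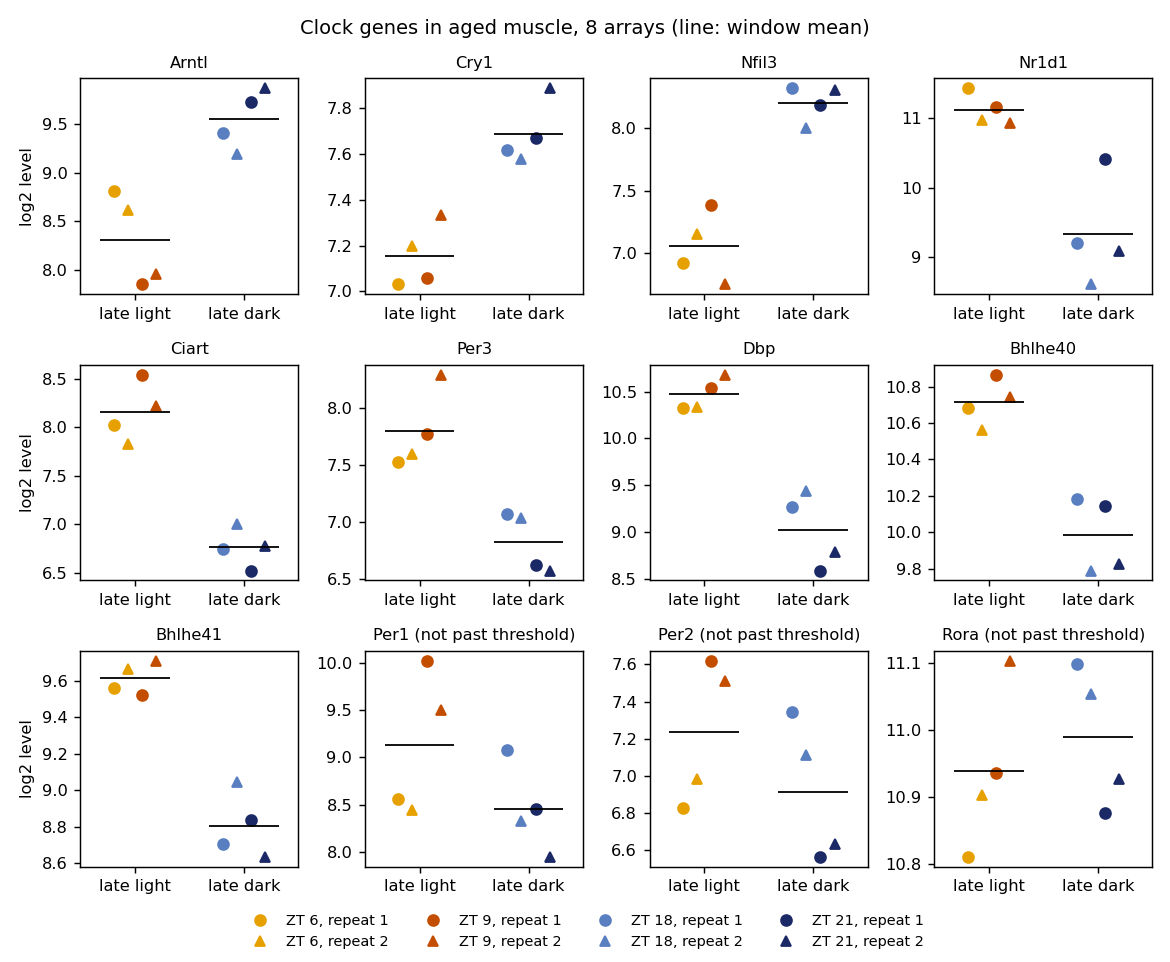
Log2 level (vertical axis, a separate scale in each panel) of 12 core clock genes in the 4 late light and 4 late dark arrays of aged muscle; colours mark ZT, shapes mark the repeat and the line is the window mean. The 9 genes past the threshold show separate windows, while Per1 and Per2 overlap, with ZT 9 above ZT 6 and, for Per2, ZT 18 above ZT 21.

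The nuclear receptors and the DEC repressors fell or did not pass. Nr1d1 (REV-ERBα), the repressor of Arntl and Nfil3, had the largest fall of all genes past the threshold. It stood at 11.44 and 10.98 at ZT 6, 11.16 and 10.93 at ZT 9, 9.20 and 8.60 at ZT 18, and 10.42 and 9.08 at ZT 21. The windows did not overlap, and ZT 21 repeat 1 was more than 1 log2 unit above every other late dark array. The fall was 3.49-fold (-1.80 ± 0.23, 95% interval -2.29 to -1.32, adjusted p = 0.00046). Its paralogue Nr1d2 was lower in every late dark array, at 9.80 to 10.31 against 10.38 to 10.50, but its difference of -0.42 ± 0.13 did not pass (adjusted p = 0.424). The activators Rora and Rorb differed by 0.05 ± 0.09 and -0.00 ± 0.15, with 95% intervals of -0.13 to 0.23 and -0.31 to 0.30. Bhlhe40 and Bhlhe41, which encode the E-box repressors DEC1 and DEC2, both fell. Bhlhe40 was at 10.68 and 10.56 at ZT 6, 10.87 and 10.74 at ZT 9, 10.18 and 9.79 at ZT 18, and 10.14 and 9.83 at ZT 21, a 1.66-fold fall (-0.73 ± 0.09, adjusted p = 0.000354). Bhlhe41 was at 9.56 and 9.66 at ZT 6, 9.52 and 9.71 at ZT 9, 8.71 and 9.05 at ZT 18, and 8.84 and 8.64 at ZT 21, a 1.75-fold fall (-0.81 ± 0.11, adjusted p = 0.000533). In neither did the windows overlap.

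The D-box factors moved in opposite directions. Dbp, the D-box activator, stood at 10.32 and 10.33 at ZT 6, 10.54 and 10.68 at ZT 9, 9.27 and 9.44 at ZT 18, and 8.59 and 8.79 at ZT 21. It fell 2.73-fold (-1.45 ± 0.18, 95% interval -1.82 to -1.08, adjusted p = 3e-04), and its ZT 21 arrays were below its ZT 18 arrays. Nfil3, the D-box repressor, stood at 6.92 and 7.15 at ZT 6, 7.39 and 6.75 at ZT 9, 8.32 and 8.00 at ZT 18, and 8.18 and 8.31 at ZT 21. It rose 2.22-fold with a clear gap between the windows (1.15 ± 0.14, adjusted p = 0.000172). The other D-box activators Tef and Hlf had differences of -0.39 ± 0.10 and -0.28 ± 0.16 (adjusted p = 0.177 and 0.977). Tef did not overlap between the windows, and Hlf did: its late light arrays ran from 7.04 to 7.60 and its late dark arrays from 6.72 to 7.15.

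The clock output list held Coq10b and Myod1 as its genes past the threshold, 1 lower and 1 higher of 11 measured, with a list median of 0.14. Coq10b, which encodes a coenzyme Q binding protein of mitochondria, stood at 8.61 and 8.59 at ZT 6, 8.84 and 8.58 at ZT 9, 7.91 and 7.80 at ZT 18, and 7.48 and 7.57 at ZT 21. It fell 1.95-fold without overlap (-0.96 ± 0.13, adjusted p = 0.00095). Myod1, a master regulator of the myogenic programme, was at 8.01 and 7.92 at ZT 6, 8.20 and 8.01 at ZT 9, 8.82 and 8.69 at ZT 18, and 8.48 and 8.74 at ZT 21. The rise was 1.57-fold (0.65 ± 0.12, adjusted p = 0.0304), and it passed in 1 of the 8 fits that left out an array. Lonrf3 had all late dark arrays higher (5.98 to 6.49 against 6.92 to 7.74) and narrowly missed the threshold (0.98 ± 0.21, adjusted p = 0.0763). Wee1, Usp2, Dtx4, Nampt, Tcap, Cdkn1a, Tspan4 and Leo1 had adjusted p-values of 0.424 or more.

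Outside the clock, genes of glycogen and sugar handling gave a rise and a fall. Of 16 genes measured, Ppp1r3c was higher and Pfkfb3 lower, and the list median was -0.08. Ppp1r3c encodes a subunit that brings protein phosphatase 1 to glycogen and favours its synthesis. It stood at 10.74 and 11.20 at ZT 6, 10.66 and 10.39 at ZT 9, 11.67 and 11.66 at ZT 18, and 11.68 and 11.82 at ZT 21. The late dark arrays were close together and all above late light, a 1.95-fold rise (0.96 ± 0.11, adjusted p = 0.000172). Pfkfb3 makes fructose 2,6-bisphosphate, a stimulator of glycolysis. It stood at 10.40 and 10.02 at ZT 6, 9.74 and 10.44 at ZT 9, 9.08 and 8.41 at ZT 18, and 9.20 and 8.75 at ZT 21. The fall was 2.45-fold without overlap (-1.29 ± 0.21, adjusted p = 0.00615), and it passed in 4 of the 8 fits that left out an array. Tbc1d1, a regulator of glucose transporter traffic, was higher in all late dark arrays but did not pass (0.64 ± 0.15, adjusted p = 0.108). Pdp1, which activates pyruvate dehydrogenase, differed by -0.51 ± 0.11 (adjusted p = 0.0813).

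Glucocorticoid targets contributed Zbtb16 and Glul, both higher, and none lower among 15 measured, with a list median of 0.15. Zbtb16, a zinc finger repressor, was at 9.40 to 9.78 in late light and 10.02 to 10.40 in late dark (0.62 ± 0.10, adjusted p = 0.00367). Its call was lost without ZT 18 repeat 1, and without the hepatocyte-high arrays its difference was 0.57 with an adjusted p of 0.107. Glul, glutamine synthetase, was at 10.18 to 10.67 in late light and 11.03 to 11.42 in late dark, a 1.64-fold rise (0.71 ± 0.12, adjusted p = 0.00716). It did not pass without ZT 18 repeat 1 or without ZT 6 repeat 2. Fkbp5, the co-chaperone of the glucocorticoid receptor, was at 7.99 and 8.51 at ZT 6, 7.85 and 8.06 at ZT 9, 8.97 and 8.88 at ZT 18, and 8.68 and 8.84 at ZT 21. Its windows were separate, but the adjusted p was 0.0597 (0.74 ± 0.15). Pik3r1, a regulatory subunit of phosphoinositide 3-kinase, was separate as well (0.66 ± 0.14, adjusted p = 0.0654).

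The gene with the second smallest p was Banp, which encodes a nuclear DNA-binding protein and was in no list. It stood at 6.84 and 6.91 at ZT 6, 6.81 and 6.65 at ZT 9, 8.02 and 7.91 at ZT 18, and 7.49 and 7.76 at ZT 21. It rose 1.99-fold with tightly grouped late light arrays (0.99 ± 0.09, adjusted p = 7.26e-06). Arrdc3, an arrestin-domain protein that acts on beta-adrenergic receptors, was at 8.56 to 9.14 in late light and 9.56 to 10.01 in late dark (0.89 ± 0.13, adjusted p = 0.001). It was the only member of its list of 5 to pass. Wsb1, a substrate receptor of a ubiquitin ligase, was at 6.68 to 6.89 in late light and 7.45 to 7.99 in late dark (0.94 ± 0.14, adjusted p = 0.00231). Arid5b, a DNA-binding transcriptional cofactor, was at 7.85 to 8.27 and then 8.61 to 8.98 (0.85 ± 0.13, adjusted p = 0.00222). Cntfr, the receptor subunit for ciliary neurotrophic factor, was at 7.98 to 8.12 and then 8.53 to 9.24 (0.84 ± 0.13, adjusted p = 0.00285). For these 5 genes no late dark array fell into the late light range.

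Further genes that rose were smaller in size. Amino acid and monocarboxylate transporters were represented by Slc38a2 (0.71 ± 0.13, adjusted p = 0.017) and Slc16a9 (0.56 ± 0.11, adjusted p = 0.0353). Timp4, an inhibitor of matrix metalloproteinases, rose by 0.64 ± 0.11 (adjusted p = 0.0117). The transcriptional repressors Bcl6 and Tle1 rose by 0.61 ± 0.11 and 0.58 ± 0.09 (adjusted p = 0.0214 and 0.00542). Lrrc30 and the RNA-binding gene Rc3h1 rose by 0.61 ± 0.11 and 0.55 ± 0.10 (adjusted p = 0.017 and 0.0182). Among these 7 genes, Tle1 passed in 7 of the 8 fits that left out an array, Timp4 in 4, Lrrc30, Bcl6, Rc3h1 and Slc38a2 in 2 each, and Slc16a9 in 1.

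The remaining genes that fell were Ky, Tnfrsf10b, Jarid2 and Tns2. Ky, a muscle protease-like protein whose loss causes spine curvature in mice, stood at 10.04 and 9.92 at ZT 6, 9.95 and 10.01 at ZT 9, 9.21 and 9.30 at ZT 18, and 9.45 and 9.24 at ZT 21. The windows did not overlap, and the fall was 1.60-fold (-0.68 ± 0.10, adjusted p = 0.00128). Tnfrsf10b, a death receptor, differed by -0.63 ± 0.13 (adjusted p = 0.0435). Jarid2, a cofactor of the Polycomb repressive complex, differed by -0.46 ± 0.09 (adjusted p = 0.0304), and the focal adhesion gene Tns2 by -0.44 ± 0.09 (adjusted p = 0.0464). Tnfrsf10b passed in 1 and Jarid2 and Tns2 in 0 of the 8 fits that left out an array.

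Among the higher genes 3 belong to families of near-identical copies, so their probe sets may also read relatives and their identity is uncertain. The histone gene H4c8 was at 6.08 and 6.36 at ZT 6, 5.71 and 5.98 at ZT 9, 7.17 and 7.30 at ZT 18, and 6.45 and 6.98 at ZT 21 (0.94 ± 0.18, adjusted p = 0.0304). The antibody segment Igkv14-126 was at 6.04 and 5.55 at ZT 6, 3.68 and 4.64 at ZT 9, 7.98 and 5.26 at ZT 18, and 7.19 and 7.59 at ZT 21. Its windows overlapped and its arrays spanned more than 4 log2 units, around a difference of 2.03 ± 0.39 (adjusted p = 0.0304). The segment Ighv11-1 was at 7.10 to 7.31 in late light and 7.37 to 8.41 in late dark (0.72 ± 0.15, adjusted p = 0.0464). Markers of B and plasma cells, a source of antibody transcripts, had a list mean of 6.23 to 6.96 in late light and 6.31 to 6.78 in late dark, and 0 of 7 passed. Of the 8 fits that left out an array H4c8 and Ighv11-1 passed in 1 each and Igkv14-126 in 2.

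The course over all 8 ZT in aged muscle showed where the windows fell on each gene's cycle. Of the 22 genes higher in late dark, 19 had their highest ZT mean within that window, and of the 12 lower genes 10 had theirs within late light. The window difference uses ZT means that also enter this count, so it describes the timing and does not test it. Arntl ran from 7.80 at ZT 12 to 9.80 at ZT 21, a 3.99-fold range. Nr1d1 was highest at ZT 3 (11.25) and lowest at ZT 18 (8.90), and Dbp ran from 8.58 at ZT 0 to 10.64 at ZT 12. Of the 10 core clock genes that did not pass, 6 peaked outside both windows. Per2 peaked at ZT 15 (7.72) and was lowest at ZT 0 (6.43), and Per1 was at 9.76 at ZT 9 and 9.72 at ZT 12 with its lowest mean of 7.74 at ZT 3. Cry2, Tef and Hlf peaked at ZT 12.

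**Figure D2:**
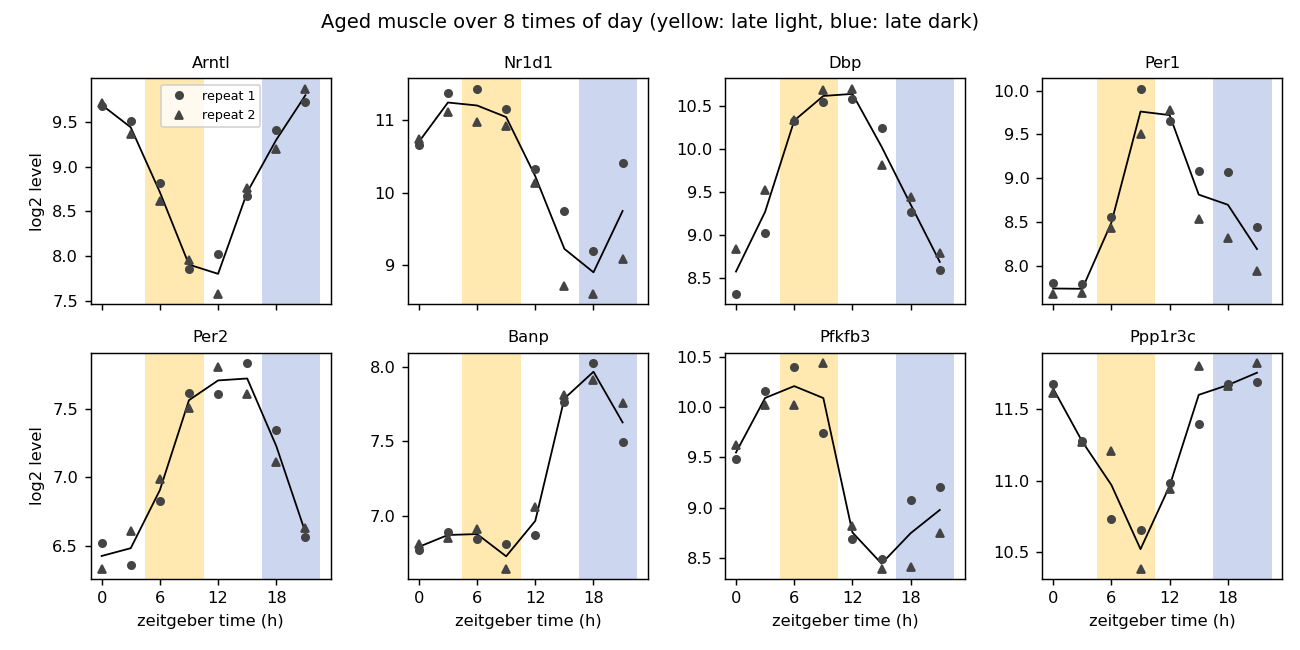
Log2 level (vertical axis, a separate scale in each panel) against zeitgeber time in hours for 8 genes in all 16 aged arrays; points are repeats, the line joins their means, and yellow and blue bands mark the late light and late dark windows. Arntl and Ppp1r3c are lower in the yellow band than in the blue band, and Nr1d1, Dbp and Pfkfb3 the reverse. Levels also change inside the bands, as in Per1 and Per2, in Arntl in the yellow band and in Nr1d1 in the blue band.

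Within the windows 0 genes passed between ZT 9 and ZT 6 (0% of those tested, 601 at an unadjusted p below 0.05) and 0 between ZT 21 and ZT 18 (0%, 586 at an unadjusted p below 0.05), by limma with 2 arrays against 2. For each, 5% of the tests would give 1164 genes. The median SE was 0.176 in both, so a count of 0 does not show that levels within a window were equal. The smallest adjusted p within late light was 0.137. Arntl differed there by -0.81 ± 0.14 (ZT 9 minus ZT 6) and Per1 by 1.26 ± 0.23 (adjusted p = 0.137 and 0.151). Per2 differed by 0.66 ± 0.15 within late light and by -0.63 ± 0.15 within late dark, with adjusted p-values of 0.952 and 1. The genes of smallest p that are outside the clock were H3c15 (-0.87 ± 0.15, adjusted p = 0.137) and Ncoa4 (-0.95 ± 0.18, adjusted p = 0.194) in late light. In late dark Gm4907 (-1.08 ± 0.26), Olfr705 (0.72 ± 0.18), A530058N18Rik (0.70 ± 0.18) and 9230102O04Rik (-0.68 ± 0.17) had adjusted p-values of 1.

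The same contrast in 8-week-old muscle, whose means share no array with the aged contrast, passed 96 genes in the same fit. Of these, 51 were higher (0.219% of the genes tested) and 45 lower (0.193%). Both contrasts use the same spread of each gene, taken from all 32 arrays, so the calls at both ages are not independent. Both ages were higher or lower together for 27 genes past the threshold at each, which is 79.4% of the aged list and 28.1% of the young list. Of the 34 aged genes 32 had the same sign in young, the exceptions being both antibody segments. The log2 difference of Nr1d1 was -1.80 in aged and -2.19 in young muscle, that of Ciart -1.39 and -1.21, and that of Pfkfb3 -1.29 at both ages. Arntl had 1.24 in aged and 0.85 in young muscle, Nfil3 1.15 and 1.16, Banp 0.99 and 1.12, and Ppp1r3c 0.96 and 1.46. The genes past the threshold in aged but not in young were Dbp, Arid5b, H4c8, Tnfrsf10b, Tns2, Igkv14-126 and Ighv11-1. Among the 96 young genes 84 had the same sign in aged muscle and 81 had a smaller absolute difference there, but those genes were picked on their young values.

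**Figure D3:**
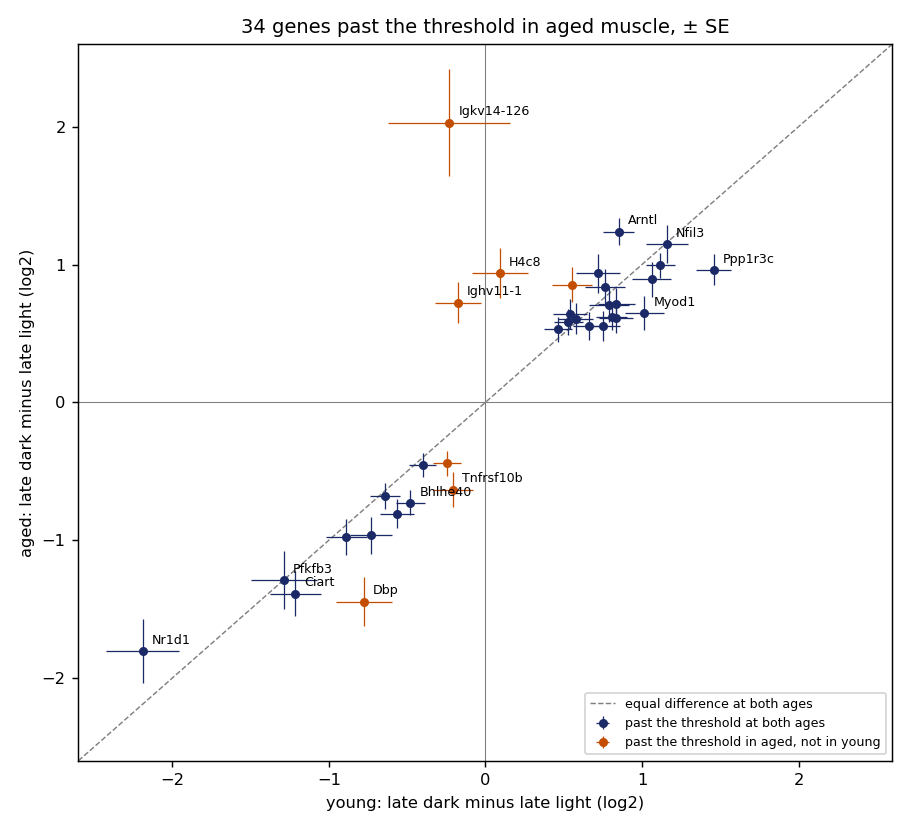
Late dark minus late light difference (log2) in aged muscle (vertical axis) against young muscle (horizontal axis) for the 34 genes past the threshold in aged muscle; bars are ± SE, the dashed line marks equal differences and orange marks the 7 genes that did not pass in young. Most genes lie near the dashed line, while Igkv14-126, H4c8 and Ighv11-1 lie to the left of it and Dbp below it.

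Tested directly, 0 genes passed for a difference between the ages in their late dark minus late light change (0% of those tested, limma, smallest adjusted p 0.281). At an unadjusted p below 0.05 there were 1258 genes, against 1164 that 5% of the tests would give. Dbp had -1.45 in aged and -0.78 in young muscle (adjusted p = 0.0568), a difference between ages of -0.67 with a 95% interval of -1.20 to -0.15 and an adjusted p of 0.915. The difference for Arntl was 0.39 (interval 0.09 to 0.68, adjusted p = 0.915), and for Ppp1r3c -0.49 (adjusted p = 0.903). Per2 differed by -0.54 (interval -0.85 to -0.23, adjusted p = 0.903), with -0.32 in aged and 0.21 in young muscle, neither past the threshold. Igkv14-126 had 2.26 (interval 1.11 to 3.41, adjusted p = 0.713), Ighv11-1 0.90 (adjusted p = 0.508) and H4c8 0.84 (adjusted p = 0.903). The smallest p-values belonged to 9430037G07Rik (1.06), Olfr790 (1.19), Olfr1259 (1.00), Cyp4a14 (0.75) and Zdhhc8 (-0.51), with adjusted p-values of 0.281 for the first and 0.363 for the others. Both young ZT 6 arrays and young ZT 18 repeat 2 are among the 6 arrays high in hepatocyte transcripts. Leaving the 6 out removes ZT 6 from young late light, while aged late light keeps ZT 6 and ZT 9. The test between ages then compares unlike hours. Without the 6 arrays the young window of late light is ZT 9 alone, 53 young genes passed and 2 genes passed the test between ages.

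Muscle fibre type genes were set against the comparison, since a hindlimb sample is a mixture of muscles. In bulk tissue fewer cells of a type and less RNA per cell cannot be told apart. All 10 slow fibre genes were lower in late dark, with a median of -1.39, but 0 passed (smallest adjusted p 0.113). In 6 of them all late dark arrays lay below all late light arrays, as in 2.03% of all genes. The 10 genes were read in the same pools and are not separate observations. Atp2a2, the slow-fibre calcium pump, stood at 10.14 and 10.71 at ZT 6, 10.99 and 9.54 at ZT 9, 8.92 and 8.99 at ZT 18, and 9.10 and 9.31 at ZT 21 (-1.27 ± 0.29). Myh7, the slow myosin heavy chain, stood at 9.47 and 10.37 at ZT 6, 10.45 and 9.08 at ZT 9, 7.37 and 7.97 at ZT 18, and 7.93 and 8.77 at ZT 21 (-1.83 ± 0.45, adjusted p = 0.156). Both were lower in every late dark array. Atp2a2 was spread widely in late light and closely grouped in late dark, while Myh7 was spread widely in both windows. Outside the windows, the repeats of ZT 12 had Myh7 at 6.90 and 9.24. Myl3, a light chain of slow and cardiac muscle, and Casq2, the calsequestrin of slow and cardiac muscle, differed by -1.51 ± 0.36 and -0.74 ± 0.18 (adjusted p = 0.133 for each). ZT 9 repeat 2 was the lowest late light array for Atp2a2 (9.54), Myl3 (7.68) and Casq2 (7.83). Leaving it out gave -1.63 for Atp2a2, -1.89 for Myl3 and -0.92 for Casq2. This leaves ZT 9 with 1 array and its spread taken from the other groups. The disagreement between the ZT 9 repeats then no longer enters the spread.

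The mean of the slow list was 8.67 and 9.17 at ZT 6, 9.37 and 8.22 at ZT 9, 7.30 and 7.60 at ZT 18, and 7.65 and 8.17 at ZT 21. Late light was higher throughout, by a narrow margin between ZT 9 repeat 2 and ZT 21 repeat 2. In young muscle the median of the same 10 genes was -0.58, and 0 passed there too. The fast fibre list had a median of -0.01 and means of 12.70 to 12.89 in all 8 arrays. Its largest difference was in Myh2, the fast oxidative myosin (-0.47 ± 0.14, adjusted p = 0.353). Of 24 genes of the respiratory chain and tricarboxylic acid cycle, 22 were negative with a median of -0.11 and 0 passed. Ppargc1b, a coactivator of mitochondrial genes, was separate between windows at -0.49 ± 0.11 (adjusted p = 0.0763). The part of the slow fibre genes in the genes past the threshold was not tested.

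Markers of other cell types leaned upward in several lists, but 0 passed the threshold. The 6 adipocyte genes measured had a median of 1.03, with list means of 9.33 and 7.33 at ZT 6, 6.96 and 10.06 at ZT 9, and 8.84 to 9.68 in late dark. The low late light arrays were ZT 6 repeat 2 and ZT 9 repeat 1, and the windows overlapped for all 6 genes. Adipoq, the adipocyte hormone gene, ranged from 5.36 to 9.78 within late light. All 11 macrophage genes were higher, with a median of 0.38 and list means of 6.50 to 6.83 against 6.69 to 7.46. Cd163, a scavenger receptor of tissue macrophages, was at 6.67 to 7.02 and then 7.46 to 8.14 (0.82 ± 0.18, adjusted p = 0.0736). All 6 mast cell genes were higher, with a median of 0.49, led by the protease gene Cpa3 (1.25 ± 0.30, adjusted p = 0.129), whose highest array was ZT 21 repeat 1 at 8.86. All 7 fibroblast genes were higher, with a median of 0.33 and a smallest adjusted p of 0.349.

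The other 12 cell type lists, including the hepatocyte genes described above, had 0 genes past the threshold. Their medians ran from -0.36 in the erythroid list to 0.21 in the tendon list (the hepatocyte median was -0.19, and the skin median -0.34). RMA values have no true zero, so no marker list can be called absent. For none of these lists was its part in the genes past the threshold tested.

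**Figure D4:**
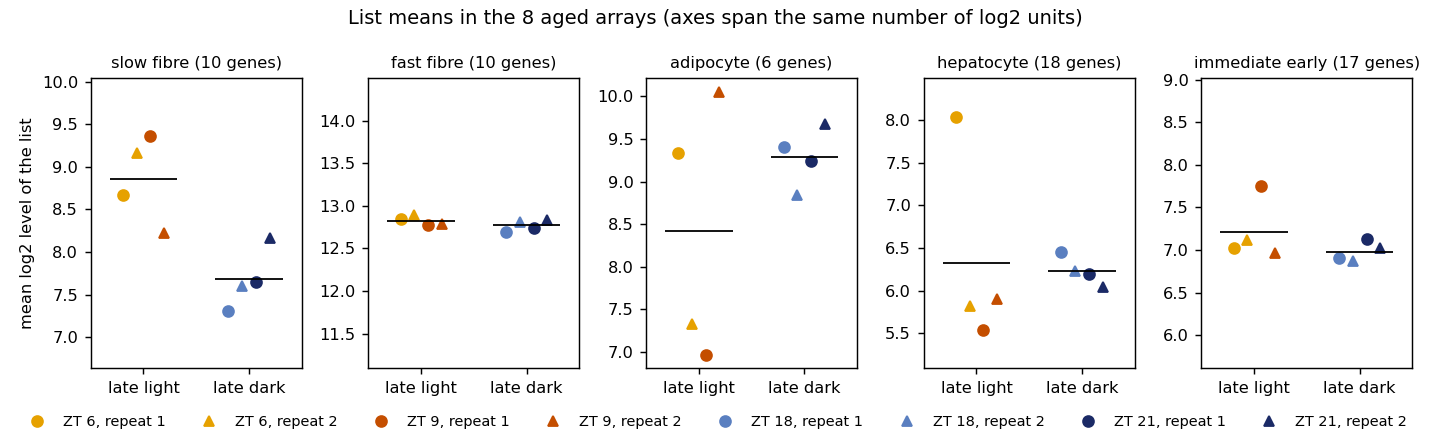
Mean log2 level of 5 gene lists in the 4 late light and 4 late dark arrays of aged muscle, drawn on axes that span the same number of log2 units; colours mark ZT, shapes the repeat and the line the window mean. The slow fibre list is lower in late dark, the adipocyte list is low in 2 late light arrays, the hepatocyte list is high only in ZT 6 repeat 1 and the immediate early list only in ZT 9 repeat 1.

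Other pathway lists held few or no genes past the threshold. Stress and activity genes did not pass: 0 of 15 heat and cold response genes (median 0.14), 0 of 14 chaperones of the endoplasmic reticulum (median 0.08) and 0 of 17 immediate early genes (median -0.25). Cirbp, a cold-inducible RNA-binding protein, was lower in all late dark arrays (-0.47 ± 0.14, adjusted p = 0.409), and the heat shock gene Hspa1a differed by 0.93 ± 0.29 with overlap (adjusted p = 0.456). Egr1, an immediate early factor, was at 8.75 in ZT 9 repeat 1 and at 6.21 to 7.09 in the other 7 arrays. Trim63, the muscle atrophy ubiquitin ligase MuRF1, was higher in all late dark arrays (10.22 to 10.38 against 10.52 to 10.96) and did not pass (0.47 ± 0.11, adjusted p = 0.118). Of the lipid lists, 0 of 15 fatty acid oxidation genes (median -0.10), 0 of 16 fatty acid and triglyceride synthesis genes (median 0.15) and 0 of 11 cholesterol synthesis genes (median 0.02) passed. Pnpla3, a lipase-family gene of fat cells and liver, was separate between the windows with a difference of 1.25 ± 0.31 (adjusted p = 0.165). Collagen and matrix genes, insulin signalling, calcium handling, denervation, myokines, atrophy and autophagy, polyamines, interferon response, cell division, mitochondrial regulators and clock kinases had 0 genes past the threshold each, with medians from -0.11 to 0.21.

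Some of the genes that missed the threshold passed it under another setting. Fkbp5, Pik3r1, Pdp1, Ppargc1b, Cd163 and Sdc4, a syndecan of satellite cells, passed both without genes of a mean below 5 and with a trended, robust variance. Cd163 had adjusted p-values of 0.0423 to 0.0493 over the 4 settings in which it passed, and Sdc4, whose difference was 0.48 (adjusted p = 0.0763), of 0.0363 to 0.0455 over its 4. Leaving out an array leaves its ZT with 1 array, whose spread is then taken from the other groups. In such fits Fkbp5 was at 0.87 (adjusted p = 0.0285) and Pdp1 at -0.62 (adjusted p = 0.0253) without ZT 6 repeat 2, Tbc1d1 at 0.81 (adjusted p = 0.0242) without ZT 9 repeat 1, and Lonrf3 at 1.18 (adjusted p = 0.0372) without ZT 18 repeat 2. ZT 9 repeat 2 had the highest adipocyte list mean of the 8 arrays, 10.06 against 6.96 in ZT 9 repeat 1. Pnpla3 was at 7.25 and 5.75 in these 2 arrays, and the part of fat cells in its difference was not tested. Without ZT 9 repeat 2, Pik3r1 was at 0.79, Pnpla3 at 1.62 and Egr1 at -1.38. For Egr1 this removes the low ZT 9 array (6.69) and leaves the high array (8.75) alone, so its disagreement with its repeat no longer enters the spread.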

How the data were processed

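Each of the 32 arrays (16 at each age) was hybridised with RNA pooled from 3 mice. The deposited log2 values were made by the authors with RMA in R 3.2.2 and affy 1.44.1, per the submitters' processing notes, which summarises probes per probe set and quantile-normalises arrays, so differences are relative to the array as a whole. The genome build behind the probe sets is not given in the sources used here. Of 24479 probe sets, 23281 had 1 gene symbol and 1198 had none; 23279 genes were tested, using the probe set of highest mean for a gene with several. Depth is not defined for arrays, and their number limits the precision.

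A model of 16 groups (age and ZT, 2 arrays each, 16 residual degrees of freedom) was fitted to all arrays with limma 3.58.1 in R 4.3.3 (lmFit and eBayes). No expression filter was applied, and p-values were adjusted by Benjamini-Hochberg over all genes at a threshold of 0.05. It was tested on simulated data. Genes named are the clock and clock output lists, up to 15 per direction past the threshold without overlap, up to 4 of smallest p in each of the other lists, and 5 of smallest p in each further comparison; 6 further genes past the threshold were added. The 46 lists, the windows and the tests were chosen with earlier results of these data known. Alternatives covered the arrays fitted, groups of age and window, a repeat block, a filter, normalization, variance models and leaving arrays out. Promoters are from RefSeq.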

Additional observations from a re-analysis of the deposited data

Results flagged for a closer look

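In 126 checks of 1 array against the other 3 of its window, over 44 genes and 19 marker lists, 7 values stood apart, and chance gives about 1 in 20. In late dark, Hlf was at 6.72 and Bcl6 at 9.88 in ZT 21 repeat 1, against 7.10 to 7.15 and 10.14 to 10.19 in the other 3 arrays. Ppp1r3c was at 11.82 in ZT 21 repeat 2 against 11.66 to 11.68, and Jarid2 at 8.79 in ZT 18 repeat 1 against 8.59 to 8.62. In late light, Coq10b was at 8.84 in ZT 9 repeat 1 against 8.58 to 8.61. The hepatocyte mean was 8.04 and the skin mean 6.59 in ZT 6 repeat 1, against 5.54 to 5.90 and 5.33 to 5.43.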

How the results depend on the processing

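The count of 34 genes varied with the arrays that entered the fit, the groups of the model and the variance model. With all arrays kept it was 51 with a trended, robust variance (33 higher, 18 lower) and 49 with array weights (32 and 17). It was 19 when only the 16 aged arrays were fitted (10 higher, 9 lower), 8 with only the 8 arrays of the windows (3 and 5), and 54 after leaving out genes with a mean below 5 (34 and 20). The fits to the 8 arrays of the windows and to a single repeat took age and window as groups, not age and ZT. In them, change from ZT to ZT within a window counted as spread. The count was 0 in each direction with only repeat 1 or only repeat 2, where each window has 1 array per ZT. There 1023 and 1188 genes had an unadjusted p below 0.05, against 1164 that 5% of the tests would give. Leaving out each array gave 19 to 33 genes, 9 to 22 of them higher and 8 to 18 lower. Without the 6 arrays with hepatocyte transcripts 14 were higher. In young muscle the 96 became 53 without those arrays, 3 and 7 with repeat 1 or 2 alone, and 49 to 136 with an array left out. The test between ages gave 2 genes without the hepatocyte-high arrays and 0 to 4 with an array left out. Within windows, leaving out an array gave 0 to 15 genes between ZT 9 and ZT 6 and 0 to 1 between ZT 21 and ZT 18. The cause of these shifts was not tested. Without the hepatocyte-high arrays, the test between ages took late light from ZT 9 alone in young and from ZT 6 and ZT 9 in aged muscle. With the replicate block 44 genes passed (28 higher, 16 lower), and all 34 were among them. The labels do not say that a repeat number marks a day or batch, so the numbers were not taken as pairs. The deviations of same-numbered arrays correlated between -0.17 and 0.17 among the 4 aged groups, and between -0.234 and 0.311 over all 16 groups. Of 184 named genes that did not pass, 17 passed in at least 1 alternative and 43 changed sign in at least 1. Each window rests on 4 arrays, and the median SE of a difference over all genes was 0.124 in log2.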
